A study of Homo sapiens with 12 samples.

Results

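The comparison described here is that of THP-1 cells given a thermomiR inhibitor with their control cells, and its members were chosen by sample title: 3 arrays titled siRNA and 3 titled WT, 6 of the 12 arrays of the series. The other 6 arrays belong to a temperature experiment and were not used. THP-1 is an established human monocytic leukaemia line. According to the protocols in the labels, the cells of both groups were turned into macrophage-like cells at 40 °C with 100 ng/ml of the phorbol ester PMA for 48 hours, and messenger RNA was read on Affymetrix PrimeView arrays. The inhibitor group carries the treatment label siThermomir. Its reagent is described as a 2′-O-methylated hairpin, introduced by nucleofection together with the plasmid pmaxGFP, and fluorescent cells were sorted 24 hours later. In the sample records the sort time of 24 hours stands for both groups. The control group is labelled WT and control, and the labels do not settle whether it received the inhibitor without a human target, the plasmid and the sort. The same text names inhibitors of miR-142, miR-143 and ThermoMIR-1 without saying which of them the arrays used. Titles speak of siRNA where the protocol speaks of a hairpin inhibitor. No label says that the 3 arrays of a group came from separate cultures, so p-values rest on the variation among arrays, perhaps only technical, and the number of arrays limits the precision.

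MicroRNAs are short RNAs that guide an Argonaute protein to messenger RNAs. Pairing rests mainly on the seed near the microRNA's 5′ end, and a bound transcript is usually translated less and degraded faster. An inhibitor of a microRNA binds it in place of its targets, so transcripts with matching sites are generally expected to be higher when it works. miR-142 is abundant in blood cells, and miR-143 is best known from smooth muscle. The arrays measured messenger RNA and not the microRNAs themselves.

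The mature sequences of the named human microRNAs are shown because any direct target would be expected to carry a match to one of their seeds. They are RefSeq sequences on GRCh38.p14, written 5′ to 3′, with the seed (bases 2 to 8) in capitals. The miR-142 arms lie on the minus strand of chromosome 17, at chr17:58331245-58331267 (3p) and chr17:58331283-58331303 (5p). The miR-143 arms lie on the plus strand of chromosome 5, at chr5:149428978-149428998 (3p) and chr5:149428944-149428965 (5p). No seed was shared between these 4 sequences.
hsa-miR-142-3p: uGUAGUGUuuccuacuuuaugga
hsa-miR-142-5p: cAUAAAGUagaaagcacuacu
hsa-miR-143-3p: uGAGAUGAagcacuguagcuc
hsa-miR-143-5p: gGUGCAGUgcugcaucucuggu

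Values are log2 expression levels as deposited, and a difference is always the inhibitor mean minus the control mean of 3 arrays each. Array medians lay between 5.81 and 5.87. Across probe sets, control arrays correlated with each other at r = 0.9965 to 0.9975, inhibitor arrays at 0.9939 to 0.9966, and arrays of different groups at 0.9782 to 0.9856. The cell type label was checked against markers. The summed level of 9 monocyte and macrophage markers, led by TYROBP, FCER1G, CD68 and ITGB2, was 14.89 to 14.92 on the control arrays and 14.53 to 14.58 on the inhibitor arrays. SPI1, the master regulator of the lineage, read only 5.8 to 6.23. The summed level of 5 promyelocyte granule genes was 10.79 to 10.94 on the control arrays and 8.96 to 9.18 on the inhibitor arrays. Of the markers of other cells, some were below the level used as a filter (4.59) and others above it. Of 7 dendritic cell markers 2 were below (CD1A, CLEC9A) and 5 above, among them CD209, at 7.65 to 7.9 on the control arrays and 8.27 to 8.37 on the inhibitor arrays, FLT3 and CCR7. LAMP3, another of the 5, was at 5.84 to 6.07 on the control arrays and 3.91 to 4.04 on the inhibitor arrays. Of 6 erythroid and K562 markers with a probe set 3 were below (HBZ, HBE1, KLF1) and 3 above (HBB, GATA1, ALAS2), and of 10 fibroblast and epithelial markers 5 were below (EPCAM, CDH1, LUM, DCN, COL3A1) and 5 above, PDGFRB being the brightest at 5.71 to 6.09. The summed levels of these sets were 9.39 to 9.51 against 9.5 to 9.62 for dendritic cells, 8.02 to 8.18 against 8.07 to 8.43 for erythroid cells, and 7.86 to 8.03 against 7.86 to 8.06 for fibroblasts and epithelium. Of 9 lymphocyte markers, CD3D and MS4A1 were below the filter. The lymphocyte sum, 11.48 to 11.57 against 11.06 to 11.17, was made up almost wholly by GNLY, which read 11.42, 11.33 and 11.32 on the control arrays and 10.76, 10.89 and 10.73 on the inhibitor arrays. NKG7, also a lymphocyte marker, went the other way. It read 6.63, 6.45 and 6.38 on the control arrays and 7.52, 7.54 and 7.33 on the inhibitor arrays. What part other cell types have in the differences was not tested.

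Several classes of control probe sets separated the groups. They are described before any gene because every difference below was read on the same arrays. The poly-A spikes are bacterial RNAs added to the sample before labelling. Their mean over 24 probe sets read 6.81, 7.47 and 6.93 on the control arrays and 5.96, 6 and 5.51 on the inhibitor arrays, 2.37-fold lower with the inhibitor (exact permutation test, two-sided, p = 0.1, the smallest that 3 arrays against 3 allow). The 4 spikes dap, phe, thr and lys were lower by 2.76-fold, 2.44-fold, 2.02-fold and 2.32-fold. The spikes added at hybridisation, after labelling, were lower by a smaller 1.11-fold. They read 10.79, 10.8 and 10.76 on the control arrays and 10.67, 10.69 and 10.52 on the inhibitor arrays, without overlap (exact permutation test, p = 0.1). The Alu probe set and the tag probe sets were 1.16-fold and 1.11-fold higher with the inhibitor, also without overlap. In the ribosomal RNA probe sets the difference depended on the region. The 5 prime probe set of 18S rRNA read 13.05, 13.32 and 13.29 on the control arrays and 10.33, 10.31 and 9.38 on the inhibitor arrays, 9.27-fold lower. Its middle and 3 prime probe sets were 7.91-fold and 3.07-fold lower. For 28S rRNA the 5 prime probe set was 2.91-fold lower and the middle one 1.26-fold higher, whereas the 3 prime one differed by 0.05 with overlapping groups (exact permutation test, p = 0.9). The excess of the 3 prime over the 5 prime probe set of ACTB was 2.36 to 2.53 on the control arrays and 2.56 to 2.88 on the inhibitor arrays. That of GAPDH was larger on the control arrays, 0.99 to 1.06 against 0.62 to 0.78. What part these differences have in the results on genes was not tested. The trp probe sets, for which no RNA is added, overlapped between the groups in the plot of control probe sets (exact permutation test, p = 0.5).

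**Figure D1:**
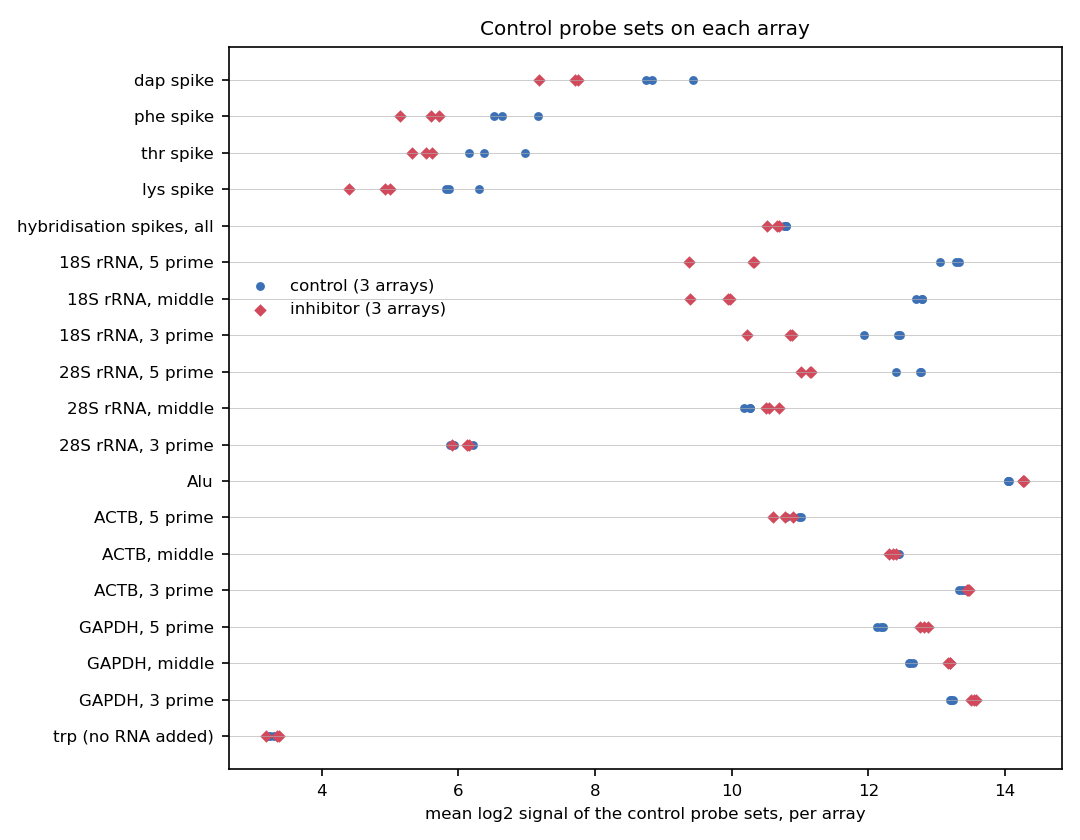
Mean log2 signal of each class of control probe sets (horizontal axis) on the 3 control arrays (blue circles) and the 3 inhibitor arrays (red diamonds). The poly-A spikes (dap, phe, thr, lys), the 18S regions and the 28S 5 prime region were lower on all inhibitor arrays. So were the hybridisation spikes, by 1.11-fold, while trp differed by 0.06 on the log2 scale with overlapping groups.

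Of 13974 genes tested, 3543 (25.4%) were higher and 2729 (19.5%) lower with the inhibitor, 44.9% in either direction, at a threshold of 0.05 on the Benjamini-Hochberg adjusted p of limma, and genes past it are said to have risen or fallen. Increases were many and small, decreases fewer and larger: 103 genes (0.737%) rose at least 2-fold and 381 (2.73%) fell at least 2-fold. The median difference over all genes tested was 0.09, and the groups did not overlap for 7515 genes (53.8%). With the mean spike level of each array as a further term in the model, 70 genes were called higher and 209 lower, and of the 6272 calls 279 were kept. Because the spike level itself separates the groups, its part and that of the treatment cannot be told apart in 6 arrays. The number of list members called under that model is given beside most list counts. List counts are to be read against the shares over all genes, 25.4% higher and 19.5% lower. The standard errors of the differences named below lay between 0.05 and 0.19. Beyond that, fewer cells of a type and less RNA per cell cannot be told apart in a bulk sample.

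FABP4, a carrier of fatty acids, showed the largest increase. It read 7.73, 7.55 and 7.61 on the control arrays and 11.1, 11.16 and 11.08 on the inhibitor arrays (11.2-fold, SE 0.07, limma adjusted p = 9.3e-07). Next came PDK4, the kinase that shuts down pyruvate dehydrogenase, which was near background in controls at 3.71, 4.39 and 4.26 and read 6.82, 7.07 and 6.84 with the inhibitor. CGA, the alpha subunit of the glycoprotein hormones, rose by 2.65, IL7R, the receptor for interleukin-7, by 2.32, and MMP9, a protease that degrades collagen, by 1.93. The increases of FABP4, PDK4, CGA, FOS, IL7R, MMP9, PLIN2 and NR4A1 were also called with the spike level in the model. On the other side, IFI27, an interferon-induced gene, read 11.1, 11.07 and 11.07 on the control arrays and 7.67, 7.67 and 7.48 on the inhibitor arrays, 11.1-fold lower. MNDA, a nuclear antigen of myeloid cells, fell by 3.46 on the log2 scale to levels below the filter. CTSZ, a lysosomal cathepsin, dropped from 11.73, 11.71 and 11.69 to 8.82, 8.72 and 8.6. THBS2, a matrix protein, was 7.69-fold lower and FBP1, an enzyme of gluconeogenesis, 6.53-fold lower. All of these decreases were also called with the spike level in the model. That the groups do not overlap was a condition for naming them and is no further result.

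**Figure D2:**
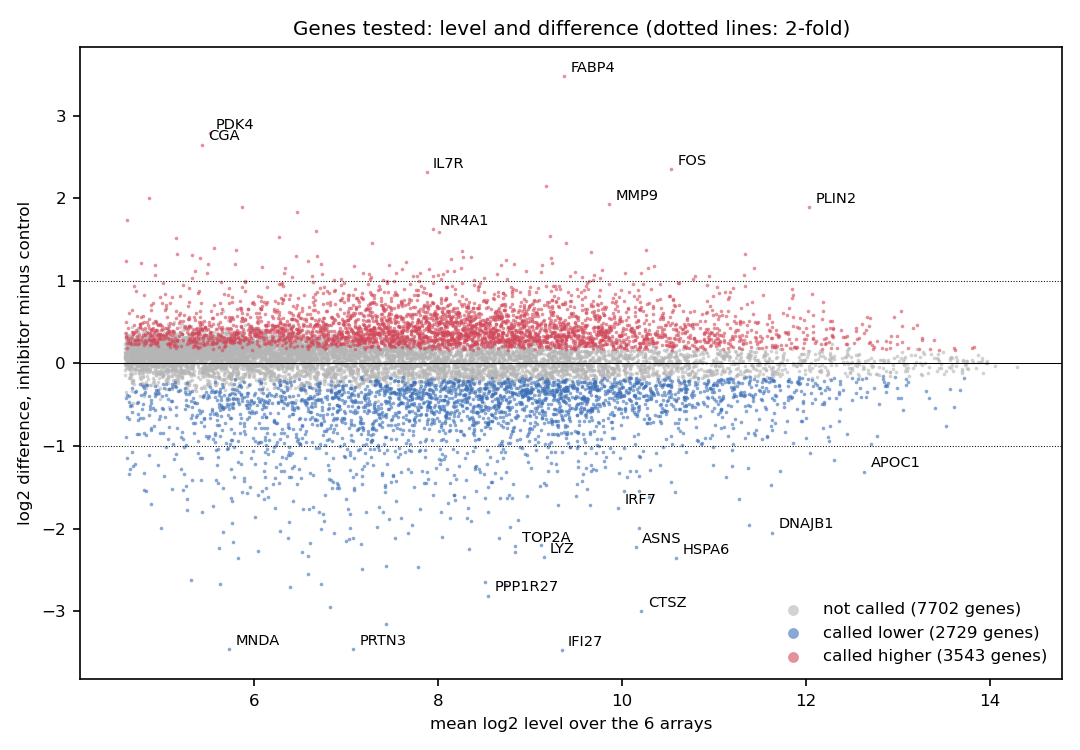
Each point is a gene tested, with its mean log2 level over the 6 arrays on the horizontal axis and its log2 difference (inhibitor minus control) on the vertical axis, red for 3543 genes called higher, blue for 2729 called lower and grey for the rest. The dotted lines mark 2-fold, past which lie 103 higher and 381 lower genes.

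Lipid genes divided along their pathways. PPAR receptors switch on genes for taking up, storing and burning fatty acids, whereas the LXR receptors respond to sterols and switch on cholesterol export. Of 19 PPAR-linked and lipid droplet genes tested, 11 rose and 3 fell (median 0.35), and 3 higher and 1 lower member were called with the spike level in the model. PLIN2, which coats lipid droplets, read 11.07, 11.12 and 11.08 on the control arrays and 12.99, 12.96 and 13.01 on the inhibitor arrays, 3.72-fold higher. CPT1A, which admits fatty acids to mitochondria, was 2.91-fold higher (a fainter probe set of the gene was not called, at 0.21). HILPDA, a droplet protein that restrains lipolysis, was 2.01-fold, DGAT2, which makes triglyceride, 1.92-fold and CD36, a fatty acid receptor, 1.77-fold higher. The receptor gene PPARG itself went the other way, from 10.76, 10.72 and 10.76 to 9.55, 9.7 and 9.62, 2.18-fold lower (adjusted p = 2.21e-05).

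No LXR target was called higher, and 8 of 11 fell, with a median of −0.72 (3 with the spike level in the model). NR1H3, the gene of LXR alpha, read 9.08, 8.91 and 9.05 on the control arrays and 6.5, 6.67 and 6.46 on the inhibitor arrays, 5.54-fold lower. The apolipoprotein genes APOC1 and APOE fell by 1.31 and 0.97 on the log2 scale. SCD, which desaturates fatty acids, was 2.12-fold, SMPDL3A, a phosphodiesterase, 2.10-fold and ABCA1, the cholesterol exporter, 1.65-fold lower. The partner exporter ABCG1 differed by 0.04 with overlapping groups. In sterol synthesis, 8 of 13 genes fell and 2 rose (median −0.52, 1 lower member with the spike level in the model). STARD4, a cytosolic sterol carrier, read 8.53, 8.53 and 8.7 against 6.6, 6.57 and 6.25 and was lower in all 5 of its probe sets. SC5D, IDI1, MSMO1, DHCR7 and HMGCS1, enzymes along the cholesterol route, fell by between 0.59 and 1.11 on the log2 scale. SQLE, the squalene epoxidase, was 1.50-fold higher in the same samples. Of 12 fatty acid synthesis genes 6 fell and none rose (1 with the spike level in the model), including ACSS2, which makes acetyl-CoA from acetate, by 1.89-fold, while ACLY and ACACA were not called, at 0.03 and 0.15 (1 fainter probe set of ACACA was lower).

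**Figure D3:**
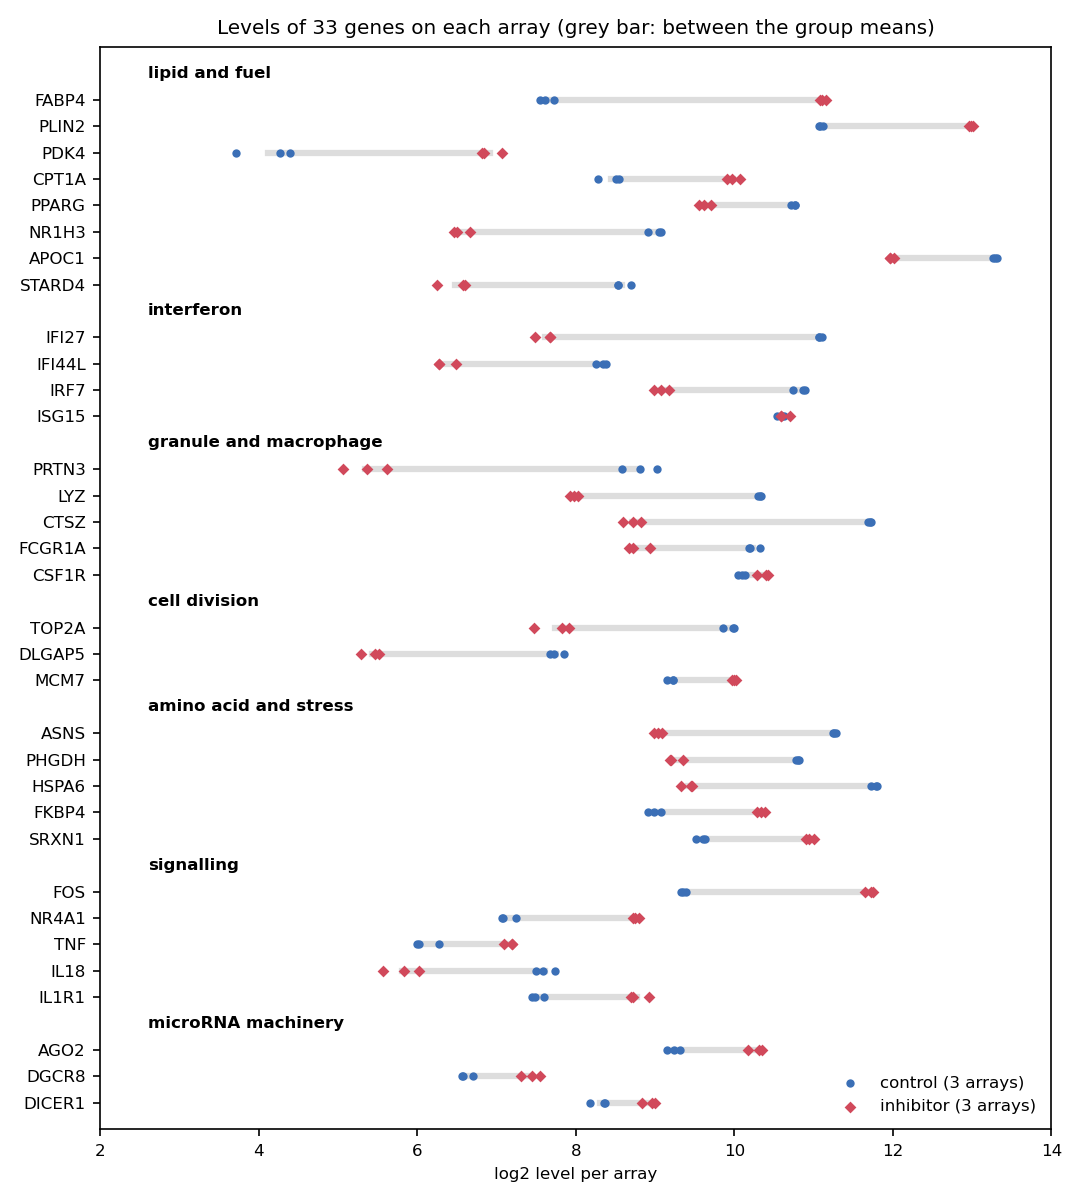
Log2 levels (horizontal axis) of 33 genes on the 3 control arrays (blue circles) and the 3 inhibitor arrays (red diamonds), grouped by role, with a grey bar joining the group means. The groups do not overlap for any gene shown except ISG15, and FABP4, PLIN2 and FOS moved to the right while IFI27, CTSZ and ASNS moved to the left.

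Granule and macrophage genes mostly fell. The granule list holds products of immature myeloid cells. Of its 15 members tested, 9 fell and 2 rose (median −0.45, 4 lower members with the spike level in the model). PRTN3, a serine protease, read 8.58, 8.81 and 9.02 on the control arrays and 5.61, 5.36 and 5.06 on the inhibitor arrays. Its relatives ELANE, AZU1 and CTSG fell by 1.75, 1.55 and 1.04 on the log2 scale, RNASE2 was 2.54-fold lower, and MPO, the myeloperoxidase, was near background and not called. LYZ, lysozyme, read 10.3, 10.32 and 10.34 against 7.93, 8.03 and 7.97, 5.07-fold lower. Of 21 macrophage genes 14 fell and 3 rose (median −0.40, 2 lower members with the spike level in the model). FCGR1A, the high-affinity receptor for IgG, was 2.76-fold lower, MERTK, which takes up dying cells, 1.95-fold, CD14, a coreceptor for bacterial lipid, 1.73-fold and CD68, a lysosomal glycoprotein, 1.40-fold. CSF1R, the receptor for the macrophage growth factor, was 1.21-fold higher in its brightest probe set, but another of its probe sets fell by 0.94 and the mean of the 3 was lower by 0.19, not called.

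Adhesion molecules were divided: 8 of 15 fell and 5 rose (1 and none with the spike level in the model). Among the integrins, which anchor leukocytes, ITGAL read 9.5, 9.52 and 9.66 on the control arrays and 7.92, 8.02 and 7.85 on the inhibitor arrays, 3.10-fold lower, and ITGAM and ITGAX were 1.69-fold and 1.52-fold lower. Their shared beta subunit ITGB2 differed by 0.01 (adjusted p = 0.854), with every array between 12.24 and 12.31. SELPLG, a selectin ligand, rose by 0.83, ITGB3 by 0.60 and CD44, the hyaluronan receptor, by 0.57, with 9 of 10 CD44 probe sets higher and 1 lower. Matrix genes were also mixed, with 5 of 12 higher and 6 lower (2 and none with the spike level in the model). MMP19 and the protease inhibitor TIMP1 rose 2.16-fold and 1.68-fold beside MMP9, while PLAU, the urokinase, fell 1.64-fold. Of 12 myeloid transcription factors 3 rose (25%) and 2 fell (16.7%), near the 25.4% and 19.5% over all genes. None of them was called with the spike level in the model. CEBPD was 1.68-fold higher, MAF and CEBPA 1.95-fold and 1.31-fold lower, and CEBPB and SPI1 were not called, at 0.14 and −0.12. MAF was called in 1 of its 3 probe sets.

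Interferon-stimulated genes are switched on by transcription factors downstream of the interferon receptors. Of 27 tested, 19 fell and 2 rose (median −0.66), and 19 were called lower in each fit with 1 array left out but 6 with the spike level in the model. The higher count was 1 without control array 2 or 3 or inhibitor array 1 or 2. Besides IFI27, the antiviral genes IFI44L, EPSTI1 and IFI44 were 3.95-fold, 3.69-fold and 3.47-fold lower. IRF7, which amplifies the response, read 10.74, 10.86 and 10.89 on the control arrays and 8.99, 9.18 and 9.07 on the inhibitor arrays. The decrease did not extend to every classical member. ISG15, a ubiquitin-like protein, read 10.63, 10.54 and 10.6 against 10.59, 10.7 and 10.59, with overlapping groups. IFIT1 fell by 0.46 and MX1, near background, was not called at −0.14. Of 13 genes of sensing and signalling 5 rose and none was called lower (none in either direction with the spike level in the model), among them MAVS and IFNGR2 by 1.40-fold and 1.49-fold. The 5 became 3 without control array 2, control array 3 or inhibitor array 1. The immunoproteasome subunit PSMB9 was 1.71-fold lower and NLRC5, an activator of class I genes, 1.51-fold lower. The class I list counted 7 lower of 15, and 4 without control array 3 or inhibitor array 1, and none with the spike level in the model, while HLA-B and B2M were not called, at −0.07 and −0.11.

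Promoters were read because many members of this list moved together. The interferon-stimulated response element was searched as GAAA NN GAAA on both strands, from 250 bases before to 50 after the RefSeq start. It was found in 10 of the 16 lower genes with a promoter in the table (62.5%), in 5 of the 6 other members (ISG15, MX1, IFIT3, OAS3 and BST2), and in 3.65% of all 27195 promoters. Lower and other members of the list thus both held it. The windows below show it in capitals for the 3 genes with the largest decreases among those that hold it, from chr14:94110616-94110675 (plus strand), chr1:78620259-78620318 (plus strand) and chr13:42992257-42992316 (minus strand) of GRCh38.p14, each written along the gene. IFI27 holds a second match on the other strand just upstream, and the IFI44L stretch occurs again closer to the start, at chr1:78620350-78620409. A match is a description of the letters and not evidence of a bound site.
IFI27: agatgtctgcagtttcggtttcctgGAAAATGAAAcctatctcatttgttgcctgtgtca
IFI44L: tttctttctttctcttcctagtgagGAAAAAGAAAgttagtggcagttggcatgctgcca
EPSTI1: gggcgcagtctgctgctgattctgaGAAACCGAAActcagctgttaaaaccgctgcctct

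Mitosis genes fell almost throughout, and DNA replication genes were called on both sides. Of 24 mitosis genes, 23 fell and none rose (median −1.34), 22 or 23 with any single array left out, and 10 with the spike level in the model. DLGAP5, a spindle protein, read 7.85, 7.67 and 7.73 on the control arrays and 5.29, 5.52 and 5.46 on the inhibitor arrays, 5.02-fold lower. TOP2A, which untangles sister chromatids, read 9.86, 9.99 and 9.98 against 7.83, 7.91 and 7.47. KIF20A, a motor of cytokinesis, NDC80 of the kinetochore and ASPM of the spindle poles were 4.48-fold, 4.33-fold and 3.98-fold lower. CDK1, the kinase that starts mitosis, and its partner CCNB1 were 2.50-fold and 2.23-fold lower. DNA replication genes counted 8 higher (36.4%) and 4 lower (18.2%) of 22, against 25.4% and 19.5% over all genes. Their median was 0.09, and none was called in either direction with the spike level in the model. MCM7, MCM4 and MCM2, subunits of the replicative helicase, rose by 0.80, 0.76 and 0.71, all 4 probe sets of each being higher, whereas their partner MCM6 fell by 0.42. PCNA, the sliding clamp, was not called, at 0.15. Without control array 3 the counts were 5 higher and 1 lower, and without control array 1 or inhibitor array 1 the lower count was 2. Of the genes that govern entry into the cycle, CDK6 and E2F1 were 1.72-fold and 1.55-fold higher and RB1, which holds E2F1 in check, 1.45-fold lower.

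The cell cycle homology region, searched as TTTGAA on both strands, occurred in 15 of the 20 lower mitosis genes that have a promoter in the table (75%), not in the 1 other member with one, and in 15.4% of all promoters. Windows of 3 of them are shown with the letters in capitals: DLGAP5, which fell most, BUB1B, a checkpoint kinase 2.21-fold lower, and PLK1, a mitotic kinase that was 1.19-fold lower but not called without control array 2, control array 3 or inhibitor array 1. They lie at chr14:55191693-55191748 (minus strand), chr15:40161021-40161068 (plus strand) and chr16:23678835-23678888 (plus strand).
DLGAP5: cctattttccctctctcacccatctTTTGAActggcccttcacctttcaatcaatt
BUB1B: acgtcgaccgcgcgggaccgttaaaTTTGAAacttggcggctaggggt
PLK1: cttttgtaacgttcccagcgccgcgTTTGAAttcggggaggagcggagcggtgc

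Amino acid and stress genes formed another block of decreases. The integrated stress response slows translation and, through the factor ATF4, raises genes that make, import and charge amino acids. Of 23 of its genes tested, 19 fell and 2 rose (median −0.84, 8 lower members with the spike level in the model). ASNS, asparagine synthetase, read 11.24, 11.28 and 11.26 on the control arrays and 9.04, 9.09 and 8.98 on the inhibitor arrays, 4.67-fold lower in the mean and lower in all 4 probe sets. CTH of cysteine synthesis, the stress protein NUPR1 and PCK2, the mitochondrial PEPCK, were 4.51-fold, 4.33-fold and 3.49-fold lower. PSAT1 and PHGDH, of serine synthesis, fell by 1.64 and 1.55, and ATF4 itself by 0.70. Of 19 aminoacyl-tRNA synthetases, which load amino acids on transfer RNAs, 12 fell and 6 rose (median −0.50, 1 lower member with the spike level in the model). CARS1 was 2.01-fold, WARS1 1.95-fold and EPRS1 1.87-fold lower. VARS1 counted among the higher ones at 0.58, but its 3 other probe sets fell by 1.12 to 2.16, and the mean of the 4 was −1.09. Amino acid transporters counted 6 higher and 6 lower of 16 (none with the spike level in the model), with SLC7A11, the cystine carrier, 1.76-fold higher and SLC7A5, a leucine carrier, 1.71-fold lower.

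The amino acid response element, searched as TGATGNAA on both strands, was present in 3 of the 14 lower stress response genes with a promoter in the table (21.4%), in none of the 4 others, in 6 of 10 lower synthetases (60%), in none of the 6 other synthetases, and in 3.67% of all promoters. The windows of ASNS, which fell most, and AARS1, a synthetase, are given with the match in capitals, from chr7:97872444-97872501 and chr16:70289661-70289718, both on the minus strand. In AARS1 the match is on the opposite strand. That no match was found in other members says only that these letters are absent from the window.
ASNS: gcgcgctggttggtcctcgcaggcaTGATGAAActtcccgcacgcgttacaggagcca
AARS1: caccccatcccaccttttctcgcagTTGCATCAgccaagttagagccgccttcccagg

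Among cytosolic heat shock proteins 14 of 23 rose and 4 fell (median 0.20), 1 and 3 with the spike level in the model. HSPA6, an HSP70 form made under stress, read 11.8, 11.72 and 11.79 on the control arrays and 9.45, 9.46 and 9.33 on the inhibitor arrays. CRYAB, a small heat shock protein, and HSPA1B, the inducible HSP70, fell 1.88-fold and 1.71-fold. FKBP4, a co-chaperone of HSP90, rose 2.54-fold, and HSPA4L rose 1.62-fold. DNAJB1 fell by 2.05 in its brightest probe set, while its other 2 probe sets differed by −0.03 and −0.11 and were not called. Of the 8 subunits of TRiC, the chaperonin that folds actin and tubulin, 6 rose (none with the spike level in the model), with CCT7 highest at 0.50. In the endoplasmic reticulum list, 7 rose and 9 fell of 22 (1 and none with the spike level in the model). CRELD2, a stress-induced secretory protein, was 2.23-fold higher in the same arrays in which HERPUD1 and XBP1, both of the unfolded protein response, were 1.88-fold and 1.82-fold lower.

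NRF2 is a transcription factor released by oxidants, and 14 of 20 of its targets tested rose and none fell (median 0.45, 3 with the spike level in the model). SRXN1, sulfiredoxin, read 9.63, 9.51 and 9.6 on the control arrays and 10.94, 11.01 and 10.9 on the inhibitor arrays. NQO1, a quinone reductase, was 2.51-fold and TXNRD1, thioredoxin reductase, 1.75-fold higher, the latter in 1 of 3 probe sets. Of 11 metallothionein and zinc transport genes 5 rose and 1 fell, none of them with the spike level in the model. The 5 were the zinc importer SLC39A8 (1.86-fold) and the zinc-binding metallothioneins MT1G, MT1F, MT1X and MT2A, by 0.92, 0.70, 0.69 and 0.62. MT1E, MT1H, MT1M, MTF1 and SLC39A10 were not called, at differences of −0.03 to 0.16. Near-identical metallothionein copies may share probes, so the gene measured is uncertain. Of 15 iron genes, 8 fell and 2 rose (2 lower members with the spike level in the model), and the 2 became 1 without control array 2 or 3 or inhibitor array 1 or 2. BLVRB, which reduces biliverdin, and SLC11A1, the phagosomal metal pump, were 2.33-fold and 2.04-fold lower. FTL, ferritin light chain, stayed between 14.26 and 14.33 on all arrays. The antioxidant response element, searched as TGACNNNGC on both strands, was found in 3 of 11 higher NRF2 targets with a promoter (27.3%), in 1 of 4 other members (ME1) and in 13.6% of all promoters. That of TXNRD1 is shown, from chr12:104215655-104215713 on the plus strand.
TXNRD1: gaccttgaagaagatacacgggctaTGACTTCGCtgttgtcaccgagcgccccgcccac

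Immediate early genes are transcribed within minutes of a stimulus, and 17 of 23 rose and 1 fell (median 0.38, 5 with the spike level in the model). FOS, a subunit of AP-1, read 9.35, 9.33 and 9.39 on the control arrays and 11.65, 11.73 and 11.75 on the inhibitor arrays, with all 4 probe sets higher. JUN rose by 0.57 in the probe set used, while its other probe sets fell by 0.35 to 0.51. The mean of all its probe sets was −0.20, not called. The nuclear receptor NR4A1 read 7.07, 7.08 and 7.24 against 8.72, 8.75 and 8.8, and all 6 of its probe sets were higher. ZFP36, which destabilises cytokine transcripts, and IER2 were 2.10-fold and 1.95-fold higher, whereas EGR1 was not called at 0.13, with 1 of its other probe sets higher and 1 lower. The cyclic AMP response element, searched as TGACGTCA, was in none of the 11 higher members with a promoter, in 1 of 5 other members (JUND) and in 1.98% of all promoters. Phosphatases and Sprouty proteins, which restrain the same kinases, went both ways: DUSP1 rose by 0.63 and DUSP2 fell by 1.00. NF-kB targets rose in 14 of 19 (median 0.49, 1 with the spike level in the model), with TRAF1 2.63-fold, TNF 2.09-fold, TNFAIP3 1.76-fold and NFKBIA 1.56-fold higher. BCL2A1, a survival factor of the same list, read 12.46, 12.27 and 12.34 against 10.69, 11.01 and 10.97, 2.76-fold lower.

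Cytokine lists differed in direction. Of 10 chemokines tested, 6 rose (60%) and 2 fell (20%), against 25.4% and 19.5% over all genes, with a median of 0.57. With the spike level in the model 1 was called higher and 1 lower. CXCL8 was 2.30-fold and CCL20 1.72-fold higher, and CXCL16 was 2.42-fold lower. In the interleukin-1 family 5 rose and 5 fell of 14 (1 lower member with the spike level in the model). IL18 read 7.74, 7.58 and 7.5 on the control arrays and 5.83, 6.02 and 5.56 on the inhibitor arrays, 3.49-fold lower. CASP1, the protease that activates IL18, was 2.04-fold lower in all 7 probe sets, and IL1RN, the receptor antagonist, and IL1B were 1.78-fold and 1.53-fold lower. The receptor IL1R1 rose from 7.6, 7.44 and 7.49 to 8.72, 8.92 and 8.69, and its kinase IRAK1 by 0.72. IL6 and IL10 were near background and not called, IL4R was 2.16-fold higher, with 4 of 5 probe sets higher and 1 lower, and VEGFA, the vascular growth factor, was 1.67-fold lower in all 10 probe sets. For lipid mediators, PLA2G4A, which releases arachidonic acid, and LTA4H, of leukotriene synthesis, were 2.03-fold and 2.00-fold lower, and PTGS1 and the prostaglandin receptor PTGER4 were 1.47-fold and 1.60-fold higher. TLR2 rose 1.92-fold, LY96, which carries lipid A to TLR4, fell 2.19-fold, and TLR4 and MYD88 were not called, at 0.16 and 0.12.

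Genes of oxygen sensing, the clock and cell death also held members on both sides. EPAS1, the gene of HIF-2 alpha, read 9.63, 9.53 and 9.7 on the control arrays and 8.13, 8.07 and 7.77 on the inhibitor arrays, 3.10-fold lower, HIF1A fell by 0.29, and the list counted 6 higher and 6 lower of 16 (none with the spike level in the model). A fainter probe set of EPAS1 was not called. NDRG1 and SLC2A1 fell with VEGFA, while ADM and HILPDA rose. BHLHE41, a repressor in the circadian clock, was 6.26-fold lower, from 9.81, 9.81 and 9.87 to 7.22, 7.29 and 7.04. DBP, NFIL3 and BMAL1 fell by 0.69, 0.62 and 0.52, CLOCK rose by 0.43 in its brighter probe set and fell by 0.41 in the other, and PER1 and PER2 were not called. Of 21 apoptosis regulators 8 fell (38.1%) and 6 rose (28.6%), against 19.5% and 25.4% over all genes. Of the decreases, 3 were called with the spike level in the model. The pro-death BH3 genes BBC3 and BIK were 3.04-fold and 2.14-fold lower and BAX 1.53-fold lower, MCL1, which protects, was 1.35-fold higher, and BCL2 was not called at 0.24.

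Of 19 glycolysis genes 7 rose (36.8%) and 4 fell (21.1%), against 25.4% and 19.5% over all genes (median 0.13). With the spike level in the model none was called higher and 2 were called lower. HK2, which starts the pathway, read 11.42, 11.3 and 11.33 on the control arrays and 9.74, 9.85 and 9.8 on the inhibitor arrays, 2.93-fold lower, and PFKFB3, which accelerates it, was 1.49-fold lower. PKM, pyruvate kinase, was 6.39-fold lower in the probe set used, the largest decrease of the list, although its probe sets differed in direction. ENO1, GPI and LDHA rose 1.88-fold, 1.51-fold and 1.35-fold. In the pentose phosphate pathway, which supplies NADPH, 5 of 7 rose and 1 fell (median 0.32, none with the spike level in the model), with PGD, TALDO1 and TKT 1.63-fold, 1.46-fold and 1.41-fold higher. Of 25 oxidative phosphorylation genes 10 fell and 2 rose (median −0.12), and the decreases numbered 6 without control array 1, control array 3 or inhibitor array 1. COX5B was 1.62-fold and NDUFS3 1.47-fold lower. Mitochondrial ribosomal proteins counted 10 lower (43.5%) and 5 higher (21.7%) of 23, against 19.5% and 25.4% over all genes. Their decreases numbered 6 without control array 1, inhibitor array 1 or inhibitor array 3, and their increases 3 when any array but inhibitor array 1 was left out. MRPL44 fell by 0.76. No member of these mitochondrial lists was called with the spike level in the model.

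Of 25 lysosomal genes 11 fell, against 19.5% over all genes, and 6 rose (24%, near the 25.4% over all genes), 1 lower member being called with the spike level in the model. Besides CTSZ, CTSK was 1.73-fold and LIPA, the acid lipase, 1.48-fold lower, and LAMP1 was 1.44-fold higher. In the vacuolar ATPase, the proton pump that acidifies the lysosome, 7 of 17 fell and 2 rose (1 and none with the spike level in the model). ATP6V0D2, a subunit found in macrophages and osteoclasts, read 10.21, 10.19 and 10.26 on the control arrays and 7.98, 8.18 and 7.89 on the inhibitor arrays, 4.61-fold lower, and the widely used subunit ATP6V1H was 1.85-fold lower. Autophagy genes fell in 10 of 25 and rose in 6, again 24% (2 lower members with the spike level in the model). WIPI1, which marks forming autophagosomes, OPTN, a cargo receptor, and MAP1LC3B, the membrane-bound LC3 protein, were 2.63-fold, 2.11-fold and 2.09-fold lower. The cargo receptor SQSTM1 was 1.47-fold higher in all 5 probe sets.

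In ribosome biogenesis 20 of 25 rose and 1 fell (median 0.55), 19 or 20 of them with any single array left out but 2 with the spike level in the model. NOP2, an rRNA methyltransferase, was 2.10-fold, UTP20 1.90-fold and RRP9 1.86-fold higher, both of the small-subunit processome, and NOP56 1.69-fold. Proteins of the mature cytosolic ribosome were mostly not called, 5 of 28 rising and none falling (none with the spike level in the model). Of 18 SR splicing factors and CLK kinases 11 rose and 3 fell (none and 1 with the spike level in the model), and the decreases numbered 1 without control array 1. CLK1, a kinase of SR proteins, read 11.3, 11.24 and 11.22 against 9.77, 9.88 and 9.8, 2.71-fold lower, and CLK2 was 1.55-fold higher. EIF4EBP1, a brake on cap-dependent translation, was 1.97-fold lower. The cold-inducible genes CIRBP and RBM3 were 2.02-fold and 1.54-fold higher.

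For a microRNA inhibitor the processing genes are of interest in their own right. Of 18 tested, 9 rose, 1 fell and 8 were not called (median 0.31), and 1 was called with the spike level in the model. AGO2, the Argonaute that cleaves targets, read 9.15, 9.24 and 9.32 on the control arrays and 10.31, 10.35 and 10.17 on the inhibitor arrays, 2.06-fold higher (SE 0.07, adjusted p = 5.92e-05). DGCR8 and DROSHA, which form the nuclear microprocessor, were 1.77-fold and 1.37-fold higher, XPO5, the export receptor, 1.40-fold, TARBP2 1.41-fold and TNRC6B, the partner of Argonaute in silencing, 1.66-fold, with 8 of its 10 probe sets higher. DICER1, which cuts the hairpin, was 1.54-fold higher in its brightest probe set and not called in the other 3, at −0.03, 0.29 and 0.08. ZC3H12A, an RNase that degrades precursor microRNAs and cytokine transcripts, was 1.77-fold higher.

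Genes reported elsewhere as targets of the named microRNAs showed no shared direction. Of 14 reported miR-142 targets, 5 rose (35.7%) and 2 fell (14.3%), against 25.4% and 19.5% over all genes. Their median was 0.13, against 0.09 over all genes. When the probe sets of each gene were averaged, 3 rose and 5 fell. ROCK2, a kinase of actin contraction, read 8.07, 7.88 and 7.97 on the control arrays and 8.85, 9.03 and 8.8 on the inhibitor arrays, 1.89-fold higher. IRAK1 was 1.64-fold, ADCY9 1.35-fold and RAC1 1.17-fold higher, BMAL1 and CFL2 1.44-fold and 1.34-fold lower, and WASL and IL6ST not called. Other probe sets were lower for both, 3 of 5 for IL6ST and 1 of 3 for WASL. Of 12 reported miR-143 targets, 4 rose and 4 fell (33.3% each, against 25.4% and 19.5% over all genes), with a median of 0.16. TLR2, KLF4 and MAPK7 were 1.92-fold, 1.34-fold and 1.32-fold higher, whereas HK2, DNMT3A, FNDC3B and FSCN1 were 2.93-fold, 1.49-fold, 1.46-fold and 1.22-fold lower. DNMT3A and FNDC3B each had a further probe set that rose, by 0.45 and 0.62. FSCN1 was not called without control array 3, inhibitor array 1 or inhibitor array 3. With the spike level in the model no reported target of either microRNA was called higher, and HK2 was called lower. Matches to the seeds in 3 prime untranslated regions were not analysed here.

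**Figure D4:**
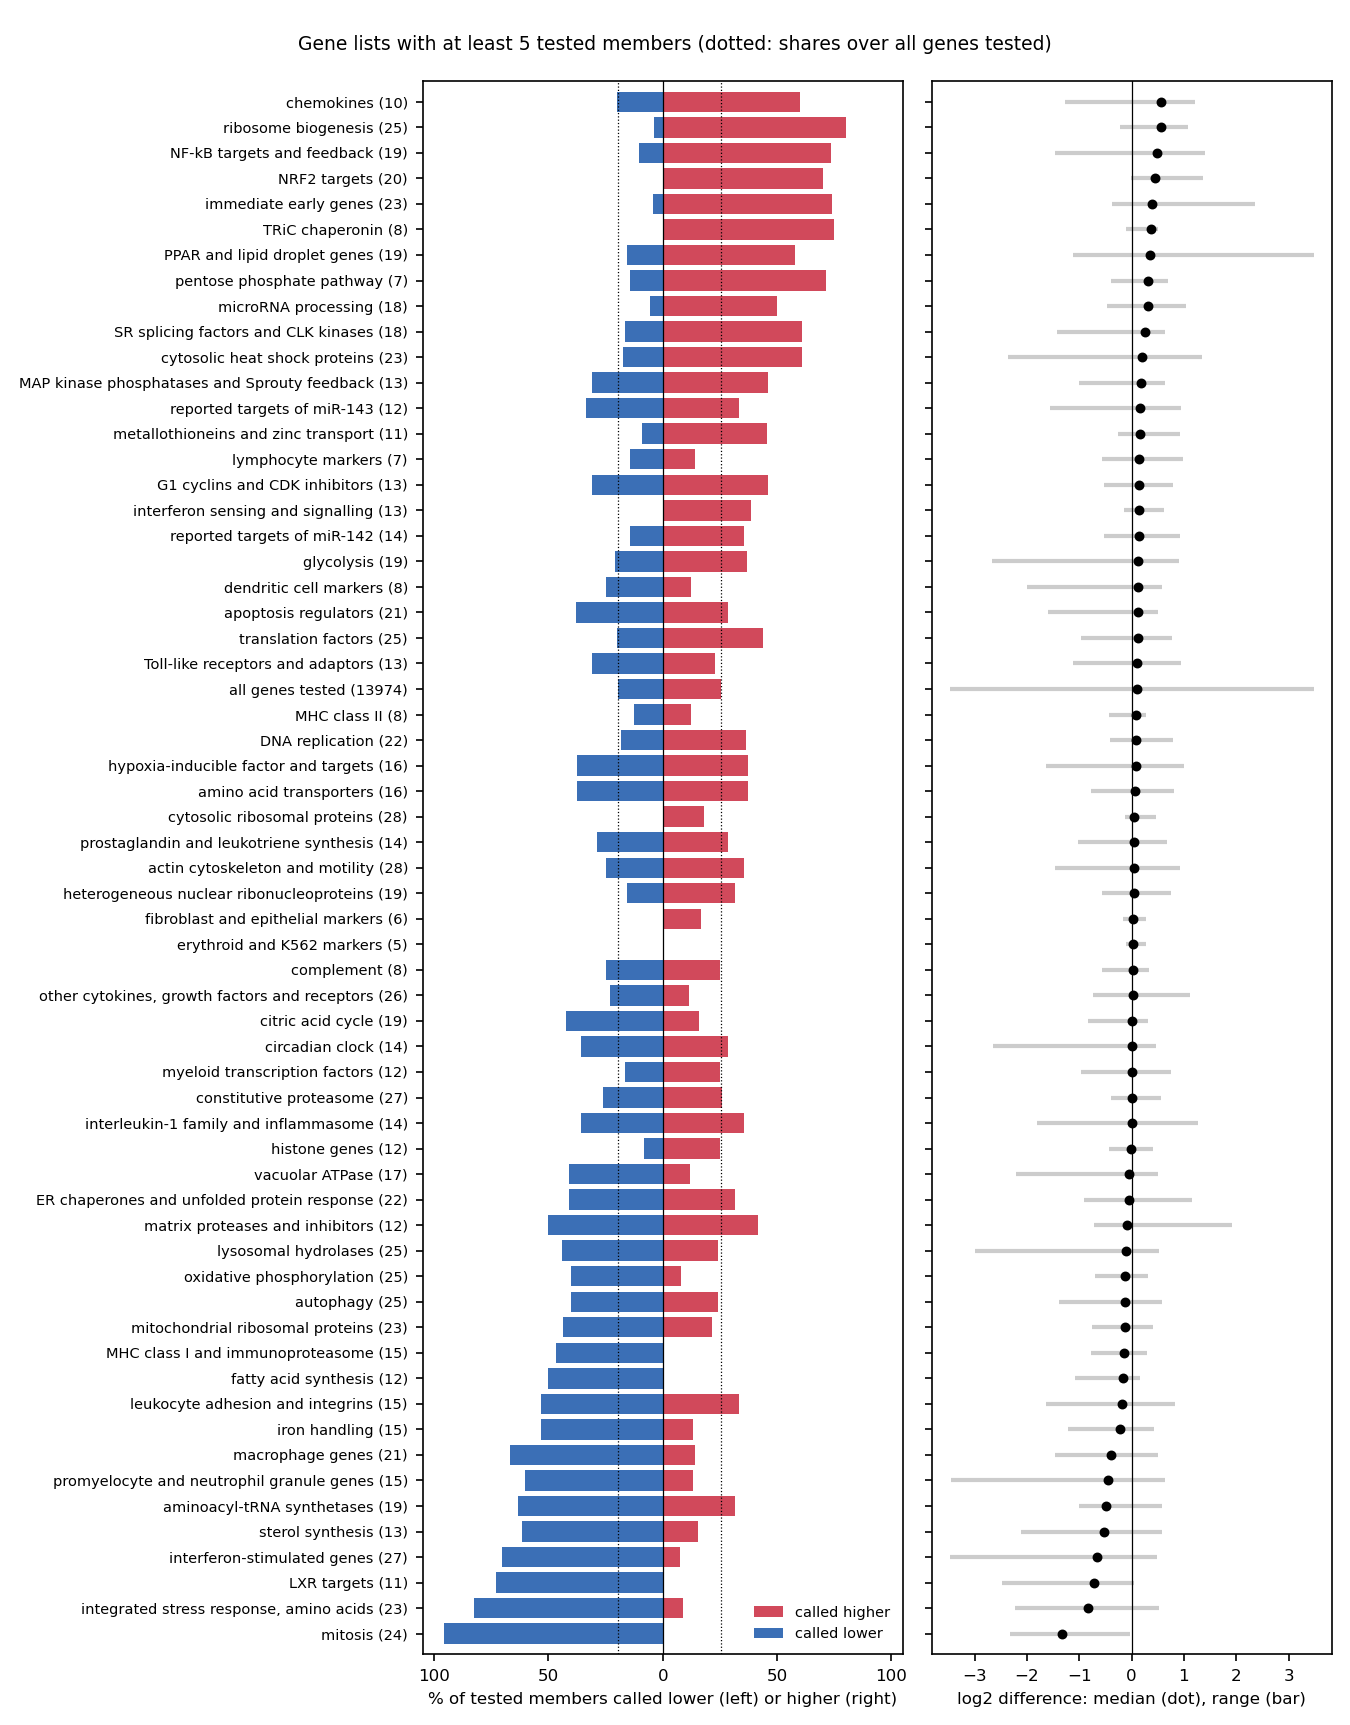
Left, the percentage of tested members called higher (red, to the right) or lower (blue, to the left) in each gene list with at least 5 tested members, with dotted lines at the shares over all genes (25.4% and 19.5%); right, the median (dot) and range (bar) of the log2 differences of those members. Mitosis, the integrated stress response, LXR targets and interferon-stimulated genes lie at the lower end and chemokines and ribosome biogenesis at the upper end.

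The value of a gene can depend on the probe set read. Of 4169 called genes with at least 2 probe sets tested, 388 (9.31%) had another probe set called in the opposite direction. Over all 31693 probe sets of 1 symbol tested one by one, 43.1% were called. HSPA8, the constitutive HSP70, is the plainest case. Its brightest probe set read 13.71, 13.75 and 13.74 on the control arrays and 13.94, 13.92 and 13.94 on the inhibitor arrays, a difference of 0.20 that was not called without control array 1, control array 3 or inhibitor array 1. A fainter probe set of the gene read 10.4, 10.37 and 10.34 against 6.16, 6.03 and 5.73, 21.1-fold lower. In all, 4 of its 9 probe sets rose by up to 0.42 and 4 fell by 2.56 to 4.40. SPAG9, a scaffold of JNK signalling, did not differ in its brightest probe set (0.01), rose by 3.32 in its faintest and fell by 1.54 in another. PKM, pyruvate kinase, fell by 2.68 and 1.06 in 2 probe sets and rose by 0.35 in another. HINT3 rose by 2.15 in the probe set used and fell by 0.82 in the other. On the control arrays that other set was the brighter, at a mean of 8.64 against 8.09, so the choice rested on the inhibitor arrays. JUN rose by 0.57 in the probe set used, chosen for its mean over the 6 arrays, and fell by 0.35 to 0.51 in the other 3. On the control arrays another set was the brighter, at a mean of 10.23 against 9.79. Here too the choice rested on the inhibitor arrays. MLPH, a melanosome linker, fell by 3.15, 2.25, 2.22 and 0.40 and was not called in 2 further sets. Which transcripts these probe sets read was not tested.

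**Figure D5:**
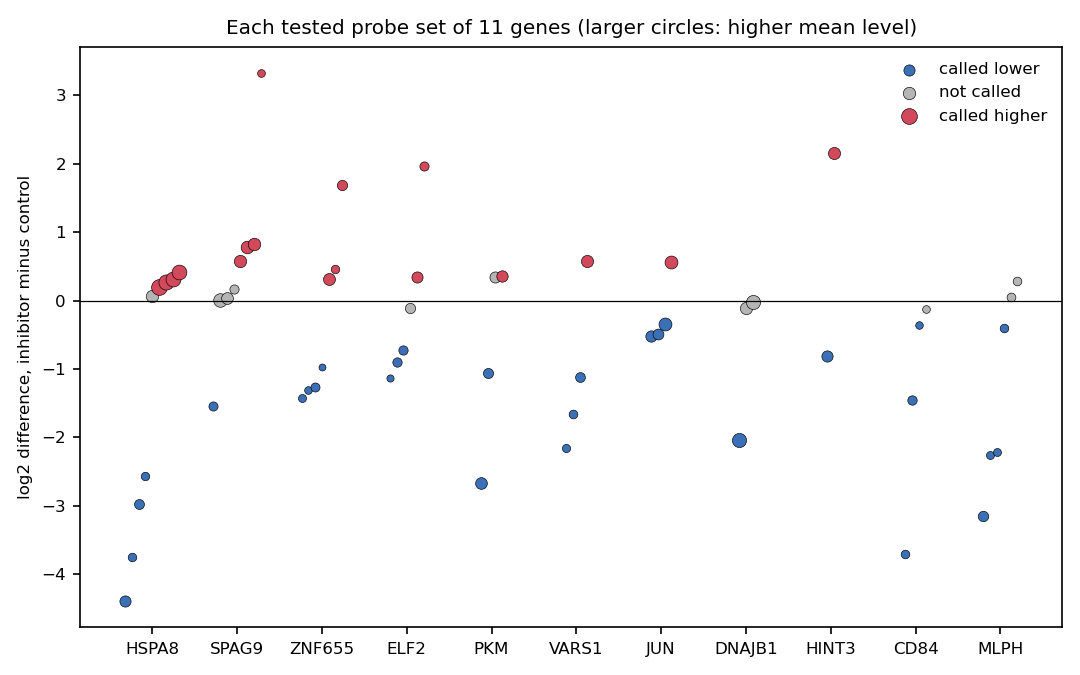
Log2 difference (vertical axis, inhibitor minus control) of every tested probe set of 11 genes, with larger circles for a higher mean level, red for called higher, blue for called lower and grey for not called. Probe sets of HSPA8, SPAG9, ZNF655, ELF2, PKM, VARS1, JUN and HINT3 were called on both sides of 0.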

How the data were processed

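Affymetrix PrimeView arrays of 6 THP-1 samples were compared, 3 per group, assigned by sample title. The deposited values are log2 levels, 1 per probe set, as their range shows; the authors' background correction, normalization and summary steps have no description in the labels or headers, and the scanner files were not used here. Of 49395 probe sets, 44988 carry 1 gene symbol in the platform's gene table, 1832 several, 2473 none, and 102 are controls. Each of 18132 genes was represented by its brightest probe set, judged by the average of the 6 arrays (18112 symbols matched RefSeq's table), and genes below the 30th percentile of levels (4.59) were left out.

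Differences were tested with limma 3.58.1 (lmFit, eBayes; R 4.3.3) on the 6 arrays alone, without covariates, and p-values were adjusted over all 13974 genes by Benjamini-Hochberg. Control probe sets were compared by exact two-sided permutation of the 6 arrays. The procedure was also run on simulated data with independent arrays. That run held no array effect linked to the groups, so it cannot vouch for the share of genes called. Members, lists and alternatives were chosen with earlier results of these data known, so no list is independent support. A list is described by counts and median beside those of all genes. Named genes are the 15 largest increases and decreases with groups that do not overlap, the first 4 tested members of each list and up to 4 further called members of largest difference, 6 genes whose probe sets differ most, and cell type markers; BUB1B, PLK1, AARS1 and others named for a promoter match or a probe set were picked after their values were seen. Alternatives were a block for replicate number, testing without a level filter, filtering at the 50th percentile, averaging or separating a gene's probe sets, quantile normalization, median centring, a trended robust fit, array weights, the mean poly-A spike level as covariate, and leaving out each array. Sequences came from RefSeq tables (GRCh38.p14). Tables and figures were made with matplotlib 3.10.9, NumPy 2.4.6 and pandas 2.3.3 under Python 3.11.15.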

Additional observations from a re-analysis of the deposited data

How the results depend on the processing

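With the mean poly-A spike level as covariate, 70 genes were called higher and 209 lower, 65 and 205 of them at least 2-fold, and 25.1% of the calls were increases against 56.5%. Of the 6272 calls, 6222 kept their sign under it. Taking every probe set on its own gave 6744 higher and 6902 lower, 260 and 1155 at least 2-fold, over 31693 probe sets. The mean of the probe sets of a gene gave 63 genes at least 2-fold higher, and array weights gave 5597 higher. The cause of the shift under the mean of probe sets and array weights was not tested. Leaving out 1 array gave 2772 to 4032 higher and 2203 to 2938 lower genes, 90 to 122 and 349 to 423 at least 2-fold. Of the 6272 calls, 4914 to 5839 were kept. All kept their sign, which is little further support, because the remaining arrays are those that gave the calls. With the mean of probe sets the sign turned for CSF1R (−0.19), ELF2 (−0.092), HSPA8 (−1.38), IL6ST (−0.44), JUN (−0.20), VARS1 (−1.09) and ZNF655 (−0.36).

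With the replicate number as a block, 2553 genes were called higher and 2199 lower, and 4714 of the 6272 calls were kept. Deviations of same-numbered arrays correlated at r = −0.08, −0.55 and −0.07, and those of differently numbered arrays at −0.36 to 0.42. With 3 arrays a group such correlations cannot settle whether a number marks a shared culture or day. No label says that it does, so the arrays are not treated as pairs.

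With 3 arrays a group, no exact test of a single value can go below 0.1. The spike level separates the groups, so its part and the group's cannot be told apart in any fit of these arrays. Signal near background limits genes such as PDK4, CGA and MNDA, whose lower group lies at or under the filter level of 4.59, so the size of their difference is less certain than that of bright genes. On the inhibitor arrays PRTN3, DLGAP5 and IL18 read close to the level of IL10, called near background above. The size of their decreases carries the same limit.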

Other observations

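Probe sets that carry several symbols or none were left out of the gene counts. Of 1278 with several symbols tested, 283 were higher and 258 lower, and of 1537 with none, 338 were higher and 294 lower, by limma at the same threshold of the adjusted p. The probe set listed for LMNB1 and PCIF1 read 8.3, 8.19 and 8.29 on the control arrays and 5.16, 5.31 and 5.07 on the inhibitor arrays. The probe set shared by HSPA6 and HSPA7, near-identical HSP70 genes, was 4.67-fold lower. Of the probe sets for CBS, the first enzyme of transsulfuration, and its annotated copy LOC102724560, 4 were lower, by 1.61, 1.67, 1.87 and 1.97 on the log2 scale. Probe sets for the glucose transporter genes SLC2A3 and SLC2A14 were lower by 2.11 and 2.13 on that scale, and those for TRIM16 and TRIM16L higher by 1.65 and 1.81. The host transcript of the miR-17 cluster (MIR17HG) had 2 higher probe sets, the brighter reading 5.09, 4.85 and 5.05 against 6.53, 6.7 and 6.61. These probe sets were picked from the largest differences, so that their groups do not overlap is no separate result. The largest change without a symbol was a probe set that read 5.18, 4.93 and 5.12 on the control arrays and 8.25, 8.29 and 8.08 on the inhibitor arrays, 8.75-fold higher.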
